A study of Mus musculus with 29 samples.

Results

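The genes described here are 33 genes of DNA replication and of entry into S phase, picked by symbol from 23918 usable gene symbols in a table of mouse kidney RNA-seq, and all 33 were found in it. By role they are 11 genes of origin licensing and the replicative helicase (Mcm2, Mcm3, Mcm4, Mcm5, Mcm6, Mcm7, Mcm10, Cdc6, Cdt1, Gins1 and Gins2), 4 polymerase and primase genes (Pola1, Prim1, Pold1 and Pole), 6 genes of the sliding clamp, its loader and strand joining (Pcna, Rfc3, Rfc4, Rfc5, Fen1 and Lig1), 5 genes of nucleotide supply (Rrm1, Rrm2, Tyms, Tk1 and Dut), 3 genes that supply and place histones (Chaf1a, Chaf1b and Slbp) and 4 G1/S regulators (Ccne1, Ccne2, E2f1 and E2f2). Their levels are given as RPKM, reads per kilobase of transcript and per 1e6 mapped reads, so a level is already divided by gene length and by library depth. No gene of the 33 was at 0 in any library, and the lowest value was 0.928 RPKM, for Ccne2.

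The study measured RNA (polyadenylated RNA, by label, in 20 of 29 libraries) from nephron progenitor cells (NPCs), the Six2-expressing cells of the cap mesenchyme that give rise to nephrons, and asked how NPCs kept in long-term culture compare with primary ones. Every library, controls included, came from a C57BL/6 and 129 hybrid background with the Six2-GCE allele, a knock-in at Six2 that encodes a fusion of GFP and an inducible Cre. Primary NPCs, with 2 libraries per age, were taken at postnatal day 1 (P1) and on embryonic days E16.5, E13.5, E12.5 and E11.5, and there were 2 libraries of Six2-negative cells from E12.5 kidneys. NPC lines grown as 3D aggregates in NPSR medium, 1 line from P1 and 1 each from E16.5, E13.5 and E11.5, were each sampled at passage 20 (P20) and passage 80 (P80), so a difference between ages of origin is also a difference between single lines. Another 9 libraries, labelled as total RNA of E13.5 origin and naming no passage, came from cultures in which 1 component of the medium had been removed for 4 or 8 days: BMP7, CHIR (which inhibits GSK3), heparin or Y27632 (which inhibits ROCK) on both days, and the cytokine LIF on day 8. The labels do not say whether libraries of a group came from separate animals or cultures, and p-values therefore reflect only the variation among these particular libraries, which may be technical.

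The depth behind the values, estimated from the steps between low values, was 6.8 to 33.7 (in units of 1e6 reads) per library. Six2 stood at 116.7 to 299 RPKM in the primary libraries, 233 to 329 in the lines, 74.2 to 250.7 after withdrawal and 3.45 to 7.35 in the Six2-negative libraries, whose label for cell type nevertheless reads NPC. The summed RPKM of 12 cap mesenchyme markers was 1036.5 to 1741.9 in primary libraries, 815.2 to 1515.3 in lines and 165.9 to 211.4 in Six2-negative libraries. P1 library 1 stood apart from its partner, with a summed RPKM of 12 kidney tubule markers of 6024.4 against 460.1 in P1 library 2. E16.5 library 1 also stood apart, with 588.3 RPKM of 10 endothelial markers against 42.5 in library 2. In bulk RNA such as this, fewer cells in S phase and less RNA of these genes per cell cannot be told apart.

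In G1 the loaders Cdc6 and Cdt1 place the Mcm2-7 ring on origins of replication, which licenses them for a single firing. Cyclin E with its kinase Cdk2, and the firing factors Mcm10, GINS and Cdc45, then turn the loaded ring into a moving helicase. DNA polymerase alpha with primase begins each strand, polymerases delta and epsilon extend it on the Pcna clamp that replication factor C loads, and Fen1 and Lig1 join the fragments of the lagging strand. Most of these genes are transcribed in late G1 and S phase by E2F factors released from the retinoblastoma protein, so their RNA is widely read as a sign of cycling cells. In the mouse kidney NPCs divide and differentiate in parallel, and the pool is used up shortly after birth.

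The promoters of these genes are shown because E2F factors bind short GC-rich stretches there. RefSeq windows of 300 bases (250 before and 50 after a transcription start, build GRCm38.p6) were found for 28 of the 33 genes, 33 windows in all. The E2F letters searched were TTTCCCGC, TTTCGCGC, TTTGCCGC and TTTGGCGC on both strands, where a match on each strand may overlap. They occurred in 33.3% of these windows and in 3.85% of the windows of all genes tested in the primary libraries. Of 29 mitosis genes 25 had windows, 26 in all, and 1 of these (3.85%) held the letters. The letters TTTGAA, found in the promoters of many genes of G2 and mitosis and called the CHR element, occurred in 9.09% of the replication windows, 11.6% of those of all genes tested and 76.9% of those of the mitosis genes. The median GC content was 61.3% for the replication windows and 60.7% for all genes tested. In 12 of the 33 windows, those of E2f1, Ccne1 and Pcna among them, bases before the start share a run of 30 or more with an annotated coding transcript of the same gene, so part of such a window is transcribed. These windows are counted in the shares above, and of the other 21 windows 33.3% held the E2F letters. The stretches printed here share no such run. Below are the bases just before the start for 4 of the 11 genes with a match, 5′ to 3′ along the gene with the E2F letters in capitals. Mcm6, Mcm5 and Cdc6 had lower RNA at P1 than at E11.5 and Pola1 did not pass that test; Mcm5, Cdc6 and Pola1 were picked after their matches and values were seen.
Mcm6 (chr1:128359706-128359880, minus strand): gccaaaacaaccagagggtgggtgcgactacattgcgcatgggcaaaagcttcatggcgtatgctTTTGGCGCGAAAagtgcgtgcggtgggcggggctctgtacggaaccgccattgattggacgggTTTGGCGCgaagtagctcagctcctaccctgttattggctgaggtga
Mcm5 (chr8:75109334-75109508, plus strand): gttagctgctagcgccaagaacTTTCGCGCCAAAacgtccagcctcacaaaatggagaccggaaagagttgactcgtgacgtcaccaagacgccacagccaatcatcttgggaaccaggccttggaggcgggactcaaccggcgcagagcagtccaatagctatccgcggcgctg
Cdc6 (chr11:98907976-98908150, plus strand): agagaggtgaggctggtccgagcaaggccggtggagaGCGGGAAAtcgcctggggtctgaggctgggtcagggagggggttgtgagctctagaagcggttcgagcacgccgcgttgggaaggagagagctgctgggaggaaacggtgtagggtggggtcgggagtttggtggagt
Pola1 (chrX:93632156-93632330, minus strand): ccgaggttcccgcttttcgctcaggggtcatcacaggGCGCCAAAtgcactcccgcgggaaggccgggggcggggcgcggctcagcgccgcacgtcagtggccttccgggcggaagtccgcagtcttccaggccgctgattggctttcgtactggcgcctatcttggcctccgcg
The Mcm6 stretch holds 3 matches, of which 2 overlap on opposite strands, and the Mcm5 stretch holds 2 overlapping matches. A match describes letters only, and genes without one, such as Mcm2 and Rrm2, also had lower RNA at P1.

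In primary NPCs the RNA of the replication machinery was lower after birth than at E11.5. Of the 33 genes, 29 fell between E11.5 and P1 and none rose (limma on log2(RPKM + 1), adjusted p under 0.05 over 13574 genes), where 17.7% of all genes tested fell and 17.5% rose. The median difference over the 33 genes was -0.95 on the log2(RPKM + 1) scale, against 0.04 over all genes tested. In 31 of the 33 both P1 libraries were below both E11.5 libraries, as in 33.6% of all genes tested. The mean was highest at E11.5 for 18 genes, at E12.5 for 8 and at E13.5 for 7, and lowest at P1 for 31.

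**Figure D1:**
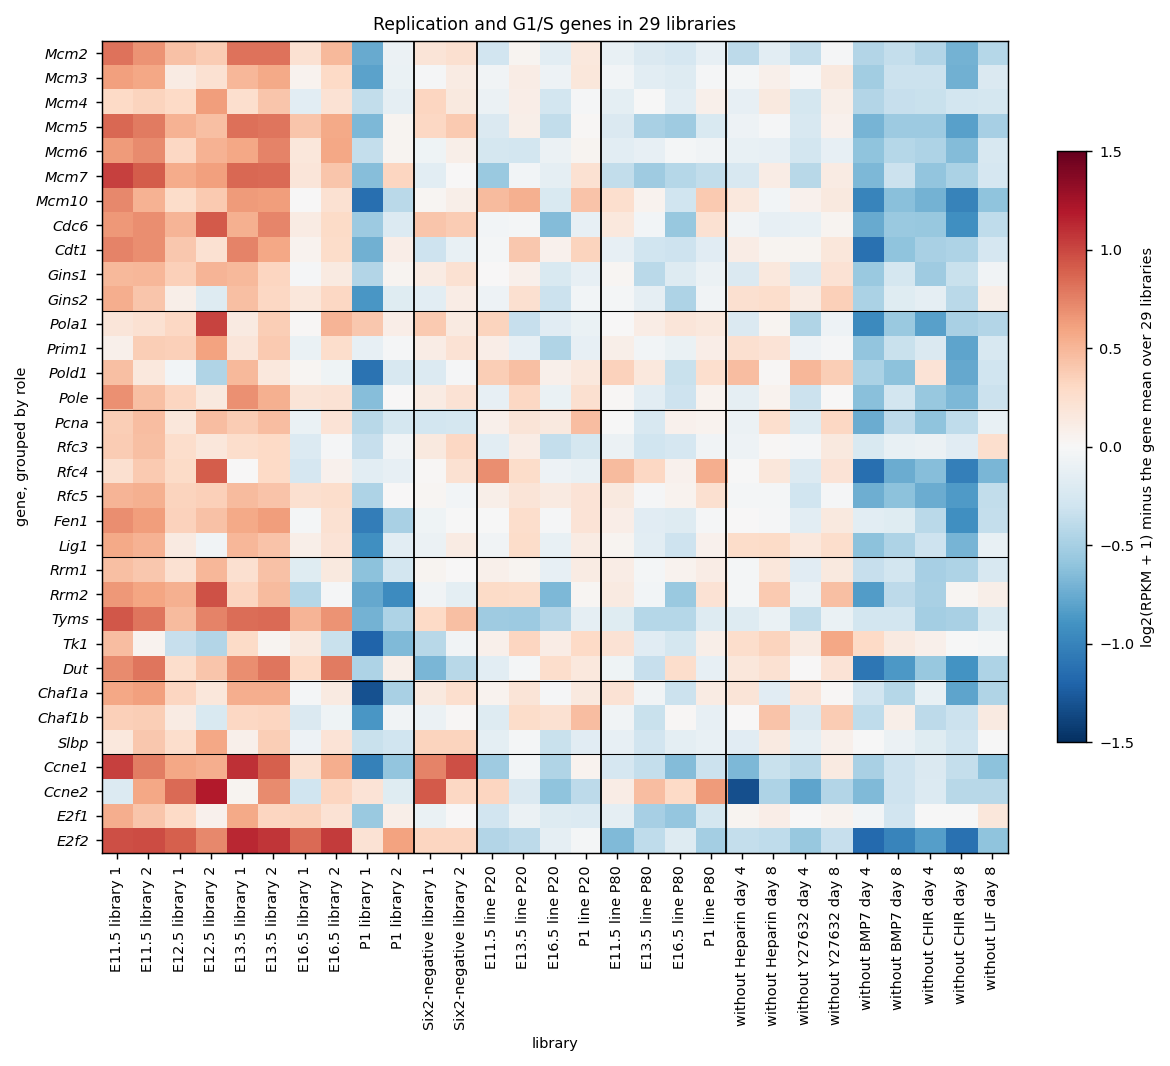
Level of each of the 33 genes (rows, grouped by role) in each of the 29 libraries (columns), as log2(RPKM + 1) minus that gene's mean over all libraries, so red is above and blue below the gene's own mean. P1 library 1 is the bluest primary column, and Ccne2 and Pola1 are the 2 genes whose mean among the 5 primary ages was not lowest at P1.

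Among the G1/S regulators, Ccne1, the cyclin E whose kinase starts S phase, had the largest change. It stood at 79.0 and 65.9 RPKM at E11.5, 58.0 and 56.6 at E12.5, 83.2 and 72.3 at E13.5, 45.6 and 56.5 at E16.5, and 18.5 and 25.2 at P1. The P1 libraries were below every earlier library, and the highest primary library was 4.49-fold above the lowest. From E11.5 to P1 Ccne1 fell by 1.69 ± 0.18 (SE, log2 scale, limma adjusted p = 0.000863). E2f1, a transcriptional activator of S phase genes, stood at 34.8 and 31.7 RPKM at E11.5 and 15.7 and 25.0 at P1, a fall of 0.72 ± 0.20 (limma adjusted p = 0.0266). E2f2, its close relative, stood at 7.60 and 7.64 RPKM at E11.5 and 4.10 and 5.66 at P1 and fell by 0.56 ± 0.16 (limma adjusted p = 0.0265). Ccne2, the second cyclin E gene, differed from the rest: it stood at 3.19 and 6.22 RPKM at E11.5, 3.95 and 6.89 at E13.5, and 4.58 and 3.26 at P1. Its E11.5 and P1 libraries overlapped, with a difference of -0.17 ± 0.37 that did not pass (limma adjusted p = 0.733).

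All 11 licensing and helicase genes fell, with differences from -1.39 to -0.57. Mcm2, a subunit of the helicase ring, stood at 132.6 and 119.8 RPKM at E11.5, 102.0 and 98.2 at E12.5, 132.7 and 132.3 at E13.5, 87.7 and 105.7 at E16.5, and 43.8 and 70.3 at P1. Every P1 library lay below every earlier one, and Mcm2 fell by 1.17 ± 0.20 (limma adjusted p = 0.00456). Mcm10, a firing factor with a lower level, stood at 30.2 and 26.1 RPKM at E11.5 and 7.63 and 13.3 at P1 and fell by 1.39 ± 0.21 (limma adjusted p = 0.00315). Mcm5 fell by 1.14 ± 0.20, Mcm7 by 1.13 ± 0.26, Mcm3 by 1.05 ± 0.21 and Mcm6 by 0.83 ± 0.18, all subunits of the ring. Of the 2 loaders, Cdc6 went from 14.7 and 15.2 RPKM to 5.85 and 7.68, a fall of 1.05 ± 0.18, and Cdt1 from 94.4 and 91.3 RPKM to 33.7 and 60.0, a fall of 1.03 ± 0.24. Mcm4 had the smallest fall among the 11, at 0.57 ± 0.17 (limma adjusted p = 0.0341).

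Genes of strand synthesis were less uniform. Of the 4 polymerase and primase genes, 2 fell: Pold1, the catalytic subunit of polymerase delta (-0.98 ± 0.27), and Pole, that of polymerase epsilon (-0.89 ± 0.20). Pola1, the catalytic subunit of polymerase alpha, stood at 7.86 and 8.21 RPKM at E11.5 and 9.40 and 7.37 at P1, which overlap, and its difference was 0.05 ± 0.26 (limma adjusted p = 0.906). Prim1, the primase that makes the RNA primers, stood at 62.0 and 76.1 RPKM at E11.5 and 53.7 and 57.8 at P1 and did not pass (-0.30 ± 0.17, limma adjusted p = 0.188). Of the 6 clamp, loader and joining genes, 5 fell, Rfc4 being the exception (-0.46 ± 0.21, limma adjusted p = 0.119). Fen1, the nuclease that trims lagging strand flaps, went from 80.9 and 77.5 RPKM to 23.7 and 35.1 and fell by 1.43 ± 0.18 (limma adjusted p = 0.00145). Pcna, the sliding clamp, held a higher level throughout: 187.2 and 199.9 RPKM at E11.5, 162.5 and 199.0 at E12.5, 188.9 and 199.7 at E13.5, 134.3 and 166.3 at E16.5, and 107.9 and 120.7 at P1. Its P1 libraries were the lowest of the primary series, and it fell by 0.76 ± 0.15 (limma adjusted p = 0.00724). Lig1, which seals the nicks between lagging strand fragments, fell by 1.09 ± 0.22.

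All 5 genes of nucleotide supply fell, by 0.87 to 1.48 on the log2 scale. Rrm2, the inducible subunit of ribonucleotide reductase, stood at 165.6 and 158.0 RPKM at E11.5, 152.5 and 203.5 at E12.5, 131.5 and 146.0 at E13.5, 78.0 and 103.6 at E16.5, and 61.1 and 54.2 at P1. Its libraries of E16.5 and P1 all lay below those of the earlier ages, and from E11.5 to P1 it fell by 1.48 ± 0.18 (limma adjusted p = 0.00138). Tyms, thymidylate synthase, kept 36.1 and 40.4 RPKM at E16.5 and stood at 14.9 and 17.8 at P1, against 48.6 and 44.4 at E11.5. Its fall of 1.45 ± 0.14 (limma adjusted p = 0.000668) therefore lay mostly between E16.5 and P1. Tk1, thymidine kinase, went from 88.3 and 66.2 RPKM to 27.1 and 40.0 (-1.19 ± 0.25), and Dut, which removes dUTP, from 166.2 and 177.9 RPKM to 73.2 and 107.2 (-0.95 ± 0.21). The 3 genes of histone supply and placement fell too: Chaf1a, the large subunit of the assembly factor that puts histones on new DNA, went from 59.2 ± 1.19 RPKM (SD, n = 2) to 15.1 and 27.4 (-1.49 ± 0.23, limma adjusted p = 0.00296).

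The count of genes that fell depended on single libraries. Leaving out E11.5 library 1 gave 10, leaving out its partner gave 17, and leaving out P1 library 1 gave 19. Markers of other cells moved with it. The tubule marker sum was 3.83 and 5.08 at E11.5, where Slc12a1, Kap, S100g and Miox were at 0 in both libraries, against 6024.4 and 460.1 at P1, and 10 of 11 tubule markers tested rose. Macrophage markers summed to 69.5 and 52.5 at E11.5 and to 1261.3 and 115.0 at P1, and renal stroma markers to 89.0 and 129.6 and to 452.4 and 405.1. Of the 10 macrophage markers tested none passed and of the 12 stroma markers 8 rose and 1 fell. The median level of the 33 genes was 33.7 RPKM in P1 library 1 and 48.9 in P1 library 2, and 30 of the 33 were lower in library 1. The part of these other cells in the result was not tested. With P1 library 2 alone set against E11.5 library 2, all 33 genes were lower, with a median of -0.68, and with library 1 against library 1 31 of 33 were lower, with a median of -1.22. The median over all genes tested was 0.22 with median-ratio scaling and -0.11 with quantile scaling, against 0.04 unscaled, and the median of the 33 lay below it by a difference of -0.96, -0.72 and -0.99.

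**Figure D2:**
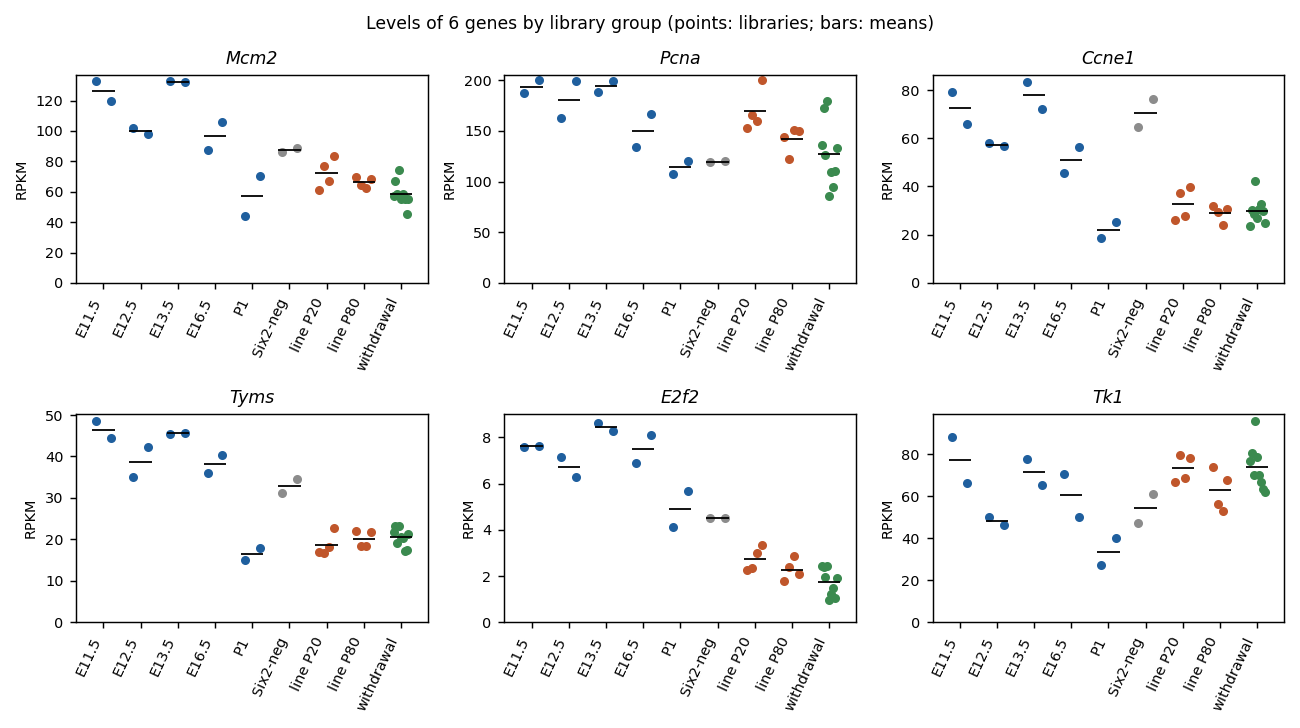
RPKM of 6 genes (panels) in each library (points) by group, with bars at the group means; blue marks primary NPCs, grey Six2-negative cells, orange the lines and green the 9 withdrawal libraries. Ccne1 and Tyms fall to their lowest primary levels at P1, and the E2f2 points of the lines lie below all primary points.

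Other genes of the same processes moved in the same period. Among all genes tested 17.7% fell and 17.5% rose between E11.5 and P1. Of 45 other replication genes tested, such as Cdc45 and the licensing inhibitor Gmnn, 28 fell from E11.5 to P1 and 1, Pold4, rose, with a median of -0.66. Of 29 mitosis genes 23 fell and none rose, with a median of -0.89. Among 24 cyclin, CDK, E2F and Rb genes 9 fell, including Myc (-1.41 ± 0.25) and Cdk4 (-1.06 ± 0.22), and 2 rose, the cyclin D gene Ccnd1 (0.97 ± 0.32) and the Rb relative Rbl2 (1.16 ± 0.18). Of 5 CDK inhibitors tested, 3 rose: Cdkn1a (2.05 ± 0.46), Cdkn1b (1.87 ± 0.41) and Cdkn2c (2.37 ± 0.36). Cdkn1c fell by 2.98 ± 0.16, from 590.7 ± 0.772 RPKM (SD, n = 2) to 74.3 ± 3.01 (SD, n = 2). These inhibitors slow or stop the cycle by binding cyclin-dependent kinases.

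The shorter intervals gave fewer calls. Between E13.5 and E16.5 none of the 33 genes passed in limma, where 0.0958% of all genes tested fell and 0.523% rose. At an unadjusted p under 0.05 there were 7 of the 33 and 1792 of the 13574 genes tested. The median was -0.35, and 24 of the 33 were lower in both E16.5 libraries than in both E13.5 libraries (21.6% of all genes tested). Rrm2 had the lowest value of the 33 (-0.62 ± 0.18, limma adjusted p = 0.198), and the count was 1, Rrm2, without E16.5 library 2. Ccne1 (-0.60 ± 0.18), Cdt1 (-0.50 ± 0.24), Mcm2 (-0.46 ± 0.20) and Pcna (-0.38 ± 0.15) had the next lower values among the genes followed throughout, while Ccne2 (-0.36 ± 0.37), Lig1 (-0.32 ± 0.22), Mcm6 (-0.29 ± 0.18), Tyms (-0.25 ± 0.14) and E2f1 (-0.17 ± 0.20) had values closer to 0. Between E16.5 and P1, 6 fell and none rose, where 3.74% of all genes tested fell and 2.73% rose: Ccne1 (-1.20 ± 0.18), Tyms (-1.18 ± 0.14), Chaf1a (-0.95 ± 0.23), Mcm10 (-0.88 ± 0.21), Fen1 (-0.87 ± 0.18) and Mcm5 (-0.82 ± 0.20). Mcm2 (-0.78 ± 0.20), Lig1 (-0.69 ± 0.22), Rrm2 (-0.64 ± 0.18), Mcm6 (-0.53 ± 0.18), E2f1 (-0.51 ± 0.20), Cdt1 (-0.47 ± 0.24) and Pcna (-0.39 ± 0.15) did not pass, and Ccne2 stood at 0.00 ± 0.37. The median was -0.53, and 23 genes were lower in both P1 libraries (28.4% of all genes tested). The 2 E16.5 libraries differed from each other in markers of other cells. The tubule sum was 649.3 RPKM in library 1 and 144.7 in library 2, against 7.44 and 3.55 at E13.5, and the stroma sum 729.1 and 210.1 against 121.6 and 109.1. The macrophage sum was 616.9 and 51.2 against 61.3 and 35.0, and of 10 macrophage, 11 tubule and 12 stroma markers tested from E13.5 to E16.5 none, 2 and 1 rose. Of the 33 genes 30 were lower in E16.5 library 1 than in library 2, with a median of -0.23, and the part of the other cells in these values was not tested. From E16.5 to P1 the count of 6 was 24 without P1 library 2, and 1 or 2 without any other single library of the fit. Over all 5 ages an F test in limma called 22 of the 33, where 24.5% of all genes tested were called, and all 22 had their lowest mean at P1. Tyms (limma adjusted p = 0.00224), Ccne1 (0.00288) and Rrm2 (0.00362) had the lowest adjusted p of the 33, Mcm2 (0.0167), Pcna (0.0246), Lig1 (0.0349), Mcm6 (0.0444) and Cdt1 (0.0490) passed, and E2f1 (0.0983) and Ccne2 (0.185) did not. The F test called 8 or 9 without an E11.5 or E13.5 library, and 11 or 12 without an E12.5 or Six2-negative library or P1 library 1. These comparisons share libraries, so their values are given side by side only.

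In Six2-negative cells of E12.5 kidneys 27 of the 33 genes had lower mean values than in E12.5 NPCs, though few passed. In limma 3 were called lower and none higher, where 4.32% of all genes tested were lower and 9.28% higher. The median difference was -0.26 against 0.02 over all genes tested. Dut stood at 62.8 and 75.4 RPKM in Six2-negative libraries and 122.1 and 135.6 in E12.5 NPC libraries (-0.89 ± 0.21, limma adjusted p = 0.0265). Rrm2 stood at 101.3 and 94.9 RPKM against 152.5 and 203.5 (-0.84 ± 0.18, limma adjusted p = 0.0165), and Pcna at 119.1 and 120.4 against 162.5 and 199.0 (-0.58 ± 0.15, limma adjusted p = 0.0340). The groups do not overlap for these 3 genes, and 19 of the 33 were lower without overlap (26.6% of all genes tested). Ccne1 was the only member higher without overlap (33.5% of all genes tested were), at 64.7 and 76.1 RPKM against 58.0 and 56.6, and did not pass (0.29 ± 0.18, limma adjusted p = 0.354). Cdt1 (-0.52 ± 0.24), Mcm6 (-0.40 ± 0.18), Ccne2 (-0.40 ± 0.37), Tyms (-0.23 ± 0.14), E2f1 (-0.23 ± 0.20), Mcm2 (-0.19 ± 0.20) and Lig1 (-0.03 ± 0.22) did not pass either. The count was 0 without either Six2-negative library or E12.5 library 2, and 8 without either P1 library. Erythroid markers summed to 6282.7 and 16582.1 RPKM in Six2-negative libraries and to 95.7 and 59.1 in E12.5 NPC libraries, with all 9 tested higher and none at 0. Renal stroma markers summed to 803.0 and 1030.5 against 178.5 and 149.2. Their part in these differences was not tested.

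Few replication genes passed the test between NPC lines and primary cells. Against primary NPCs of the same 4 ages, with age of origin in the fit, 4 of the 33 were lower at P20 and 7 at P80 and none was higher, where 21.6% and 24.0% of all genes tested were lower and 14.5% and 15.3% higher. The median difference was -0.20 at P20 and -0.24 at P80, against -0.11 over all genes tested in each. Both comparisons use the same 8 primary libraries. E2f2, E2f1, Tyms and Mcm6 were lower at both passages, and Mcm5, Mcm7 and Dut at P80.

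E2f2 was the clearest of these and the only member whose lines and primary libraries did not overlap (12.6% of all genes tested were lower without overlap at P20 and 14.3% at P80). It stood at 2.24, 2.34, 3.00 and 3.33 RPKM in the P20 lines, in order of age of origin, at 1.78, 2.37, 2.85 and 2.10 in the P80 lines, and between 4.10 and 8.63 in the 8 primary libraries. It was lower by -1.11 ± 0.16 at P20 (limma adjusted p = 0.000146) and -1.29 ± 0.16 at P80 (limma adjusted p = 4.47e-05). E2f1 was between 15.4 and 22.1 RPKM in the 8 line libraries and between 15.7 and 35.3 in primary ones, and its difference was -0.43 ± 0.16 at P20 (limma adjusted p = 0.0487) and -0.61 ± 0.16 at P80 (limma adjusted p = 0.00874). Tyms stood at 17.0, 16.8, 18.2 and 22.7 RPKM in the P20 lines and 22.0, 18.4, 18.3 and 21.7 in the P80 lines. Primary libraries of E11.5, E13.5 and E16.5 were above all of these, at 36.1 or more, and the P1 libraries were at 14.9 and 17.8. The difference was -0.84 ± 0.26 at P20 (limma adjusted p = 0.0216) and -0.74 ± 0.26 at P80 (limma adjusted p = 0.0370).

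Within the helicase ring the subunits differed in the lines. Mcm6 was 109.5, 108.4, 123.2 and 134.6 RPKM in the P20 lines, 123.2 ± 5.20 (SD, n = 4) at P80 and 177.4 ± 43.2 (SD, n = 8) in primary libraries, with differences of -0.54 ± 0.17 (limma adjusted p = 0.0283) and -0.48 ± 0.17 (limma adjusted p = 0.0424). Mcm7 was 85.1 ± 4.54 RPKM at P80 (SD, n = 4) against 170.4 ± 54.7 (SD, n = 8), a difference of -0.91 ± 0.25 (limma adjusted p = 0.0121), and Mcm5 differed by -0.82 ± 0.22 (limma adjusted p = 0.00948). Mcm3 and Mcm4 did not pass at either passage, with differences of -0.32 ± 0.19 and -0.17 ± 0.13 at P80. As a share of the summed RPKM of Mcm2 to Mcm7, which does not depend on scaling between libraries, Mcm3 made up 19.3% to 21.5% in the 8 line libraries and 15.7% to 17.3% in the 10 primary libraries, without overlap. The share of Mcm7 was 16.6% to 17.8% at P80 and 19.5% to 24.6% in primary libraries, but 16.3% to 22.0% at P20, which overlaps the primary range. No test was run on these shares, and RNA shares do not give the make-up of the protein ring.

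Several genes of S phase did not pass in the lines. Pcna was 169.6 ± 20.9 RPKM (SD, n = 4) in the P20 lines, where the 8 primary libraries ranged from 107.9 to 199.9 (0.08 ± 0.17, limma adjusted p = 0.716), and at 144.3, 122.5, 151.0 and 149.6 in the P80 lines (-0.17 ± 0.17, limma adjusted p = 0.435). Averaged over the 4 ages, Rrm2 was within 0.05 of primary cells on the log2 scale at both passages (SE 0.22), but ages differed in direction. Its E11.5 line stood at 128.2 and 114.8 RPKM against 165.6 and 158.0 in E11.5 NPCs, and the E13.5 and E16.5 lines were also lower. The P1 line was higher, at 107.1 and 122.2 against 61.1 and 54.2. Lig1 differed by -0.09 ± 0.20 and -0.24 ± 0.20. Mcm2 (-0.44 ± 0.22 and -0.55 ± 0.22) and Cdt1 (-0.12 ± 0.20 and -0.53 ± 0.20) did not pass at P20 or P80, nor did Ccne2 (-0.37 ± 0.21 and 0.23 ± 0.21). Ccne1 stood at 26.3, 37.1, 27.9 and 39.9 RPKM in P20 lines and 32.0, 29.6, 24.1 and 30.6 in P80 lines, below every primary library of E11.5, E13.5 and E16.5 and overlapping those of P1. Its difference of -0.61 ± 0.30 at P20 (limma adjusted p = 0.123) and -0.77 ± 0.30 at P80 (limma adjusted p = 0.0566) did not pass.

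**Figure D3:**
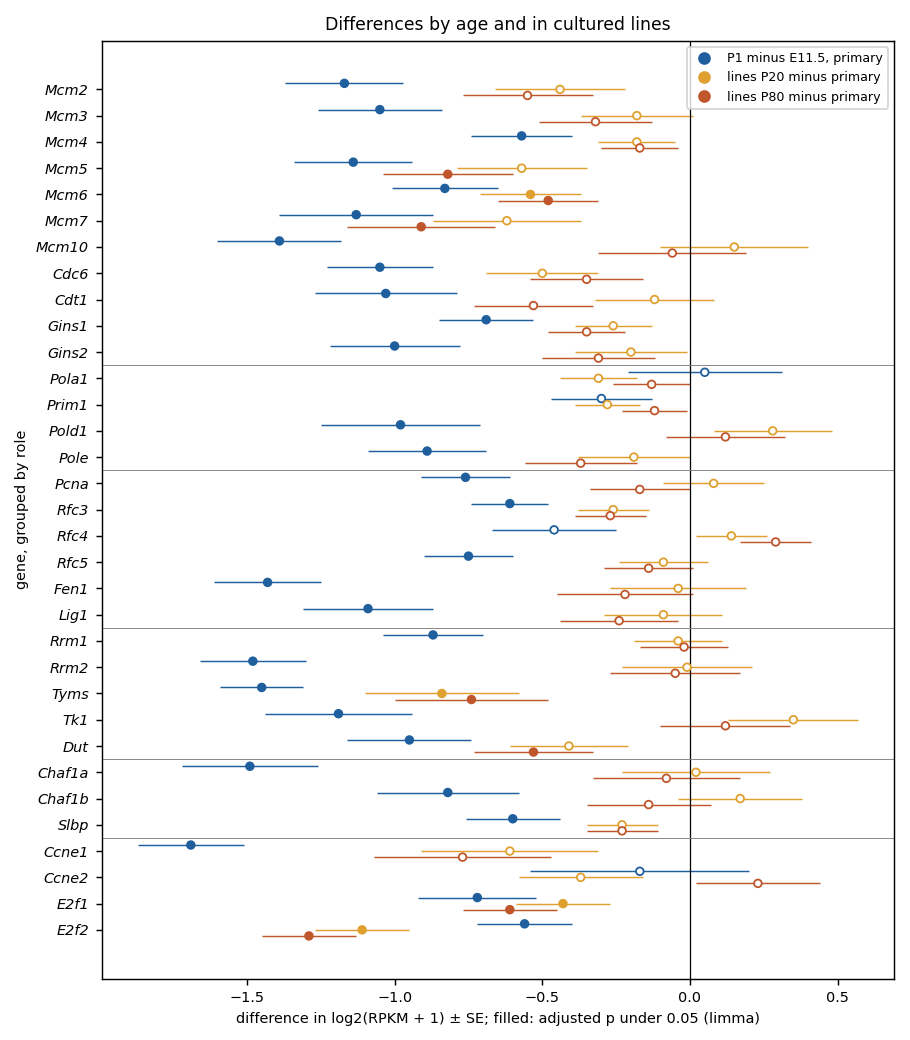
Difference in log2(RPKM + 1) with its standard error for each of the 33 genes (rows, grouped by role) between P1 and E11.5 primary NPCs (blue), P20 lines and primary NPCs (yellow) and P80 lines and primary NPCs (orange); filled points passed an adjusted p of 0.05. Most blue points lie left of -0.50 and filled, while most line points lie near 0 and open, with E2f2 the lowest of the line points.

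The line counts rested on single libraries. The count at P20 was 14 without primary P1 library 1 and 10 without the P20 library of the P1 line. It was 1 without the P20 library of the E13.5 or the E16.5 line, and 2 without that of the E11.5 line, primary E11.5 library 2, either primary E13.5 library or primary E16.5 library 2. At P80 the count was 17 without primary P1 library 1 and 13 without the P80 library of the P1 line. It was 1 without the P80 library of the E13.5 line, and 4 without that of the E11.5 or E16.5 line or any primary E11.5 or E13.5 library. The values also differed by age of origin. Of the 33 genes, 27 were lower without overlap in the E11.5 line than in E11.5 NPCs (median -0.53), 29 in the E13.5 line (median -0.44) and 22 in the E16.5 line (median -0.30). Of all genes tested, 44.7%, 40.3% and 40.3% were lower without overlap in these 3 sets, with medians of -0.09, -0.09 and -0.13. In the P1 line 1 was lower and 19 were higher without overlap (median 0.42), where 33.7% of all genes tested were lower and 25.6% higher, with a median of -0.08. Each such set is 2 line libraries against 2 primary libraries, and no test was run on it.

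Some other genes of G1 control had larger differences in the lines than any of the 33. Ccnd1 was 51.3 ± 17.2 RPKM (SD, n = 8) in primary libraries and 4.48 ± 2.72 (SD, n = 4) at P20, and Ccnd2 28.1 ± 6.52 and 5.52 ± 4.25, both cyclins that start phosphorylation of the Rb protein. Cdkn1a, the inhibitor p21, was 9.88 ± 9.69 RPKM in primary libraries and 229.4 ± 82.8 at P20 (4.69 ± 0.34, limma adjusted p = 6.22e-07). Of 29 mitosis genes 4 were higher and none lower at P20, and 6 higher and 1 lower at P80. Of 45 other replication genes 1 was higher and 7 lower at P20 and 2 higher and 9 lower at P80. Among all genes tested 14.5% were higher and 21.6% lower at P20, and 15.3% and 24.0% at P80. The tubule marker sum was 1.69 to 4.65 in the lines and 3.55 to 6024.4 in the primary libraries. The macrophage sum was 23.4 to 38.0 in the lines and 35.0 to 1261.3 in the primary libraries. P1 library 1 had the highest value of both. The part of such cells in the differences between lines and primary cells, those of the P1 line included, was not tested.

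No difference between passages was called for these genes. The fit gave primary and line libraries a shared age term. Yet the median line minus primary difference over the 33 genes ran from -0.53 (E11.5) to 0.42 (P1). That mismatch enters the errors given here, which may therefore overstate the variation between passages of a line. Between P20 and P80 of the same lines none of the 33 passed in limma (1 at an unadjusted p under 0.05, Ccne2, 0.60 ± 0.25), nor did any of the 13612 genes tested (819 at an unadjusted p under 0.05). Pcna and Cdt1 were lower without overlap at P80 (-0.25 ± 0.19 and -0.42 ± 0.23), as were 2.42% of all genes tested. E2f1 (-0.18 ± 0.18), Ccne1 (-0.15 ± 0.34), Lig1 (-0.15 ± 0.23), Mcm2 (-0.11 ± 0.26), Rrm2 (-0.04 ± 0.26), Mcm6 (0.06 ± 0.20) and Tyms (0.11 ± 0.30) had values near 0 beside their errors. All P80 libraries carried the last lines of the deposited table displaced and no P20 library did, so passage and this feature of the table cannot be told apart.

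In primary cells most of the 33 genes were lower at late ages (E16.5 and P1) than at early ages (E11.5 and E13.5). Among the lines none of the 33 was called by age of origin. In the same fit, with the 2 passages of a line averaged, 24 of the 33 fell from early to late in primary NPCs and none rose, where 9.52% of all genes tested fell and 15.2% rose, with a median of -0.64. In that comparison of primary cells 10 of 12 tubule markers rose (median 2.93), 10 of 12 stroma markers rose and 1 fell (median 2.22), and 8 of 10 ureteric bud markers rose (median 1.91). Their part in the lower values was not tested. Between late and early lines none passed in limma, with 0.0147% of all genes tested lower and 0.0294% higher, and the median was -0.05. None of the 33 had an unadjusted p under 0.05, against 1158 of the 13612 genes tested. Mcm6 was higher in late lines without overlap, as were 3.31% of all genes tested. Ccne1 was 36.5 ± 17.7 RPKM (SD, n = 4) in late and 75.1 ± 7.61 (SD, n = 4) in early primary libraries, and 30.6 ± 6.70 and 31.2 ± 4.53 (SD over 4 libraries, which are 2 lines at 2 passages) in late and early line libraries. The test itself used 2 late and 2 early line averages. Its error was pooled with that of the 8 primary libraries, classed only as early or late. Differences between E16.5 and P1 primary cells therefore enter the errors given for the lines. The mean of Rrm2 was lower late in both, at 74.2 ± 22.0 against 150.3 ± 14.9 RPKM in primary libraries and 91.4 ± 27.6 against 118.1 ± 12.3 over the same line libraries. In the lines this came from the E16.5 line, at 65.3 and 71.1 RPKM. The P1 line, at 107.1 and 122.2, lay within the range of the early lines, 102.2 to 128.2. The Rrm2 difference in lines was -0.41 ± 0.30 and did not pass. In the lines Ccne2 (-0.18 ± 0.31), Lig1 (-0.08 ± 0.29), E2f1 (-0.06 ± 0.24), Ccne1 (-0.04 ± 0.41), Cdt1 (-0.01 ± 0.26), Mcm2 (0.05 ± 0.31), Tyms (0.12 ± 0.38), Mcm6 (0.17 ± 0.23) and Pcna (0.17 ± 0.18) did not pass either.

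The test of the difference between these differences called none of the 33 in limma, where 0.132% of all genes tested were called higher and 0.580% lower. At an unadjusted p under 0.05 there were 10 of the 33 and 2446 of the 13612 genes tested. The late minus early value was higher in lines than in primary NPCs for 32 of the 33, with a median of 0.62 against -0.01 over all genes tested. Ccne1 had the highest value of the 33 (1.11 ± 0.50, limma adjusted p = 0.279), Pcna had 0.74 ± 0.22 (limma adjusted p = 0.130) and Mcm7 1.04 ± 0.35 (limma adjusted p = 0.175). Tyms had 0.97 ± 0.47, Mcm2 0.86 ± 0.38, Cdt1 0.75 ± 0.32, Mcm6 0.73 ± 0.28, Rrm2 0.64 ± 0.36, Lig1 0.62 ± 0.36, E2f1 0.39 ± 0.29 and Ccne2 0.08 ± 0.38. Pola1 was the exception, at -0.04 ± 0.23. In the same test 6 of 12 stroma markers (median -3.45) and 2 of 12 tubule markers (median -2.94) were called lower, and their part in the values of the 33 genes was not tested. Without E16.5 library 2 the count was 3 and without P1 library 1 it was 2. Cdkn2a, a CDK inhibitor locus, was higher in late than early lines, at 47.8 ± 18.5 against 7.02 ± 3.10 RPKM (SD over 4 libraries of 2 lines each), and passed in this test, on line averages (2.47 ± 0.34, limma adjusted p = 0.0138).

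**Figure D4:**
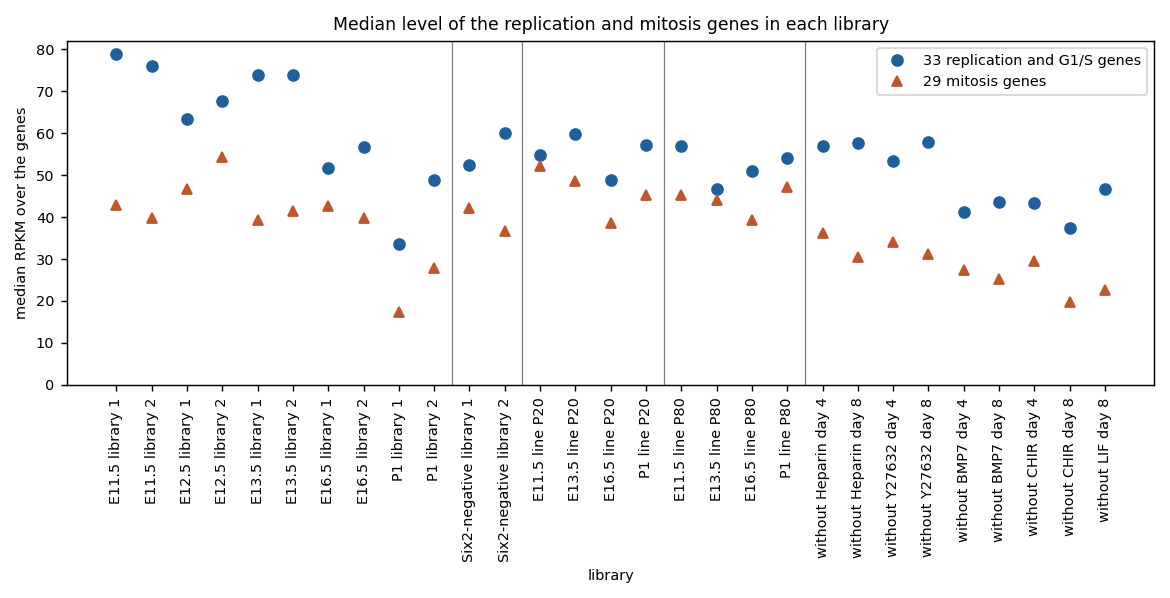
Median RPKM over the 33 genes (circles) and over 29 mitosis genes (triangles) in each of the 29 libraries; vertical lines separate primary, Six2-negative, P20, P80 and withdrawal libraries. The replication median falls from 79.0 and 76.1 at E11.5 to 33.7 and 48.9 at P1 and lies between 46.8 and 59.9 in the lines.

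Removal of a medium component was sampled with 1 library per condition and day, no test was run, and values describe those libraries. No library of this set is labelled as grown in complete medium. The libraries without heparin and without Y27632 served as the reference, so an effect common to both removals would not show. Differences were taken from the same-day mean log2 value of the libraries without heparin and without Y27632, and fold counts are on the log2(RPKM + 1) scale, which understates differences of low genes such as Ccne2 (0.928 RPKM without heparin and 1.79 without Y27632 on day 4). On that scale none of the 33 genes differed by 1.5-fold between those reference libraries on either day, where 2.81% of 12189 genes were lower and 2.27% higher by that much on day 4, and 1.34% and 1.87% on day 8. On day 8 without CHIR, 20 of the 33 were at least 1.5-fold lower and none higher, where 14.7% of all genes were lower and 16.1% higher, with a median of -0.67. On day 4 without CHIR 2 were lower (4.95% of all genes) and 1 higher (7.16%), with a median of -0.31. The reference moved as well. From day 4 to day 8 its median difference over the 33 genes was 0.28 without Y27632 and 0.09 without heparin, against 0.02 and -0.01 over all genes. Without CHIR the median of the 33 was -0.13, with 10 genes higher and 23 lower, against -0.01 over all genes. The larger day 8 count is therefore not a measure of the change within the CHIR libraries alone. Without BMP7 13 were lower on day 4 (16.6% of all genes, median -0.47) and 10 on day 8 (11.9%, median -0.44), and none was higher (15.1% and 12.4% of all genes). Without LIF 3 were lower on day 8 (10.7%, median -0.35) and none higher (11.9%).

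Rfc4, Dut, Lig1 and Mcm10 were among the lowest. Rfc4, a clamp loader subunit, stood at 48.8 and 42.3 RPKM on day 4 without heparin and without Y27632 and at 55.1 and 56.8 on day 8, against 21.9 and 28.8 without BMP7 and 31.1 and 23.5 without CHIR on days 4 and 8, and 30.0 without LIF. All 5 of these libraries lay below the 4 reference libraries. Dut stood at 47.1 and 55.2 RPKM without BMP7, 68.0 and 53.8 without CHIR and 73.3 without LIF, against 101.9 to 118.4 in the reference libraries. Lig1 was 92.3 to 100.8 RPKM in the reference libraries and 53.5 and 59.7 without BMP7, 66.2 and 50.5 without CHIR and 76.3 without LIF. Mcm10 was lower in the same libraries, with 17.3 to 20.1 RPKM in the reference and 8.45 to 11.4 in the other 5.

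Members differed in which libraries were low. Fen1 was 43.7 RPKM on day 8 without BMP7 and 25.7 without CHIR, against 49.1 and 55.0 in the day 8 reference libraries. Rrm2 was below both same-day reference libraries in all 5 libraries, by 1.5-fold or more only without BMP7. On day 4 it stood at 58.4 RPKM without BMP7 and 74.3 without CHIR, against 103.1 and 98.6 in the reference. On day 8 it stood at 79.4 without BMP7, 107.4 without CHIR and 111.5 without LIF, against 137.6 and 144.2. Cdt1 was 25.2 RPKM on day 4 without BMP7 and 36.6 on day 8, 39.8 and 40.3 without CHIR and 46.7 without LIF, against 57.5 to 63.2 in the reference, so all 5 libraries were lower. E2f2 was 0.969 and 1.22 RPKM without BMP7, 1.48 and 1.03 without CHIR and 1.90 without LIF, against 1.96 to 2.45. Several members stayed within 1.5-fold in all 5 libraries, among them E2f1, with 19.0 to 26.5 RPKM over all 9 libraries, Tyms, with 17.3 to 23.3, and Ccne1, with 23.7 to 42.1. Ccne2 was the gene higher on day 4 without CHIR, at 3.18 RPKM against 0.928 and 1.79.

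**Figure D5:**
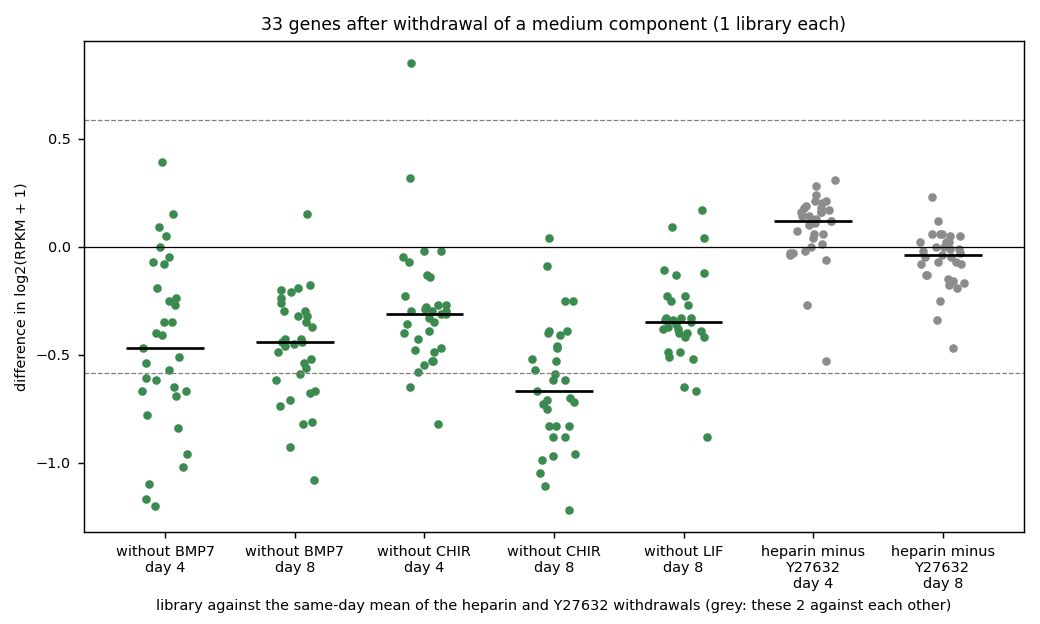
Difference in log2(RPKM + 1) of each of the 33 genes (points) in each withdrawal library from the same-day mean of the heparin and Y27632 withdrawals, and, in grey, of those 2 libraries from each other; bars are medians and dashed lines mark 1.5-fold. The day 8 library without CHIR has the lowest median, -0.67.

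Of 29 mitosis genes, 24 were at least 1.5-fold lower on day 8 without CHIR (14.7% of all genes) and none on day 4 (4.95%). Without BMP7 13 were lower on day 4 (16.6% of all genes) and 5 on day 8 (11.9%). Without LIF 7 were lower (10.7%). Markers of renal stroma moved too, with sums of 189.9 to 276.2 RPKM in the 4 reference libraries, 650.4 and 716.9 without BMP7, 681.6 and 848.5 without CHIR and 588.8 without LIF, and the cap mesenchyme sum was 689.2 to 741.4 in the reference, 865.2 on day 4 and 337.4 on day 8 without CHIR, 508.3 and 432.9 without BMP7 and 453.2 without LIF. Endothelial markers summed to 89.4 to 104.4 RPKM in the reference, 235.8 and 273.5 without CHIR, 327.9 without LIF and 74.8 and 108.4 without BMP7. No stroma marker was at 0 in all 9 libraries. The part of such a shift in the values of the replication genes was not tested.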

How the data were processed

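RPKM values per gene were deposited by the authors in 1 table of 29 libraries. Per the submitters' processing notes STAR, Cufflinks and mm9 were used for the libraries labelled as polyadenylated RNA, with roles and versions not given in the sources used here, and for the 9 withdrawal libraries no tool or build is given in the sources used here. RPKM already divides by length and depth, and counts could not be recovered: 62.4% to 74.7% of low values lay within 0.1 of a whole read, so no count test was run. Of 23947 lines, 2 displaced end lines and 27 symbols turned into dates were dropped; the displacement splits the libraries into sets of 18 and 11.

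limma 3.58.1 (R 4.3.3) was fitted with a variance trend to log2(RPKM + 1), which understates changes of low genes, over genes that reached RPKM 1 in 2 or more of the libraries fitted, and p-values were adjusted by Benjamini-Hochberg over all of them, two-sided, with a threshold of 0.05. The fits held 12 libraries (primary and Six2-negative), 16 (8 primary and 8 line libraries, with age of origin as a term, since the passages of a line are paired), and 8 primary libraries with 4 line averages. All 33 genes passed the filter in each. In the fit of 16 libraries the age term is shared by primary and line libraries. The fit with line averages pools the error of both and classes ages only as early or late. Age differences that these terms do not describe therefore enter the errors. The fits were tested on simulated data. Alternatives were another pseudocount (0.1), no filter or a filter at RPKM 5, median-ratio and quantile scaling, the table set or the replicate number as a term, and leaving out each library.

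The text always gives 10 genes (Pcna, Mcm2, Mcm6, Ccne1, Ccne2, E2f1, Cdt1, Tyms, Rrm2 and Lig1) and up to 8 more per comparison by size among those called whose groups did not overlap; other members named were chosen after their values were seen. The members, gene lists and tests were chosen with earlier results of these data known, so no list is independent evidence of its direction. Promoter sequences are from RefSeq (GRCm38.p6) and were compared by their letters, not by coordinates, with GENCODE coding transcripts of the older mouse build; no RPKM value was computed from these sequences.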

Additional observations from a re-analysis of the deposited data

Results flagged for a closer look

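Slbp, which binds the stem-loop of histone mRNAs, was examined with the other members in the P20 and the P80 lines, 66 sets of 4 libraries in all. In the P80 lines the E13.5 line stood at 33.8 RPKM and the other lines at 38.2, 37.6 and 38.4, a gap of 0.834 of the range just above Dixon's 95% critical value for 4 values. Chance sets apart about 1 in 20 such groups, and this was the 1 set apart among the 66.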

How the results depend on the processing

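The direction and the call of single genes held in 1922 of the gene values recomputed, 139 lost the call, 31 gained it and 61 changed sign; the cause was not tested. Counts of called genes moved by over 1.5 times as follows. From E16.5 to P1 the count was 6, and 3 with no filter, 3 with quantile scaling and 3 with median-ratio scaling. The F test called 22, and 13 with no filter and 14 with median-ratio scaling. P20 lines against primary cells gave 4, and 7 with quantile scaling and 1 with the table set as a term. P80 lines gave 7, and 4 with no filter and 11 with median-ratio scaling. Withdrawal of CHIR on day 4 gave 2, and 1 against the Y27632 library alone and 4 with a pseudocount of 0.1; withdrawal of LIF gave 3, and 6 against the Y27632 library alone.

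With each library left out in turn the counts ranged from 10 to 29 (P1 against E11.5), 0 to 1 (E16.5 against E13.5), 1 to 24 (P1 against E16.5), 8 to 27 (F test), 0 to 8 (Six2-negative), 1 to 14 (P20), 1 to 17 (P80) and 0 to 3 (lines minus primary), and stayed at 0 for P80 against P20 and for late against early lines. A group left with 1 library is assumed to vary like the others.

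Whether replicate numbers pair the libraries was not settled: same-numbered deviations correlated from -0.11 to 0.37 over 15 pairs, and 7 exceeded 0.1. The highest was between E16.5 and P1. In each primary and Six2-negative group but E12.5 NPCs, library 2 carried the displaced end lines and library 1 did not. There replicate number and table set cannot be told apart. With the replicate block the counts were 30, 5, 23, 3 and 0 (P1 against E11.5, P1 against E16.5, F test, Six2-negative and E16.5 against E13.5). With no replicate block, that is without age of origin, which pairs the passages of a line, they were 3 (P20), 6 (P80) and 0 (P80 against P20).

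Sign changes were in values near 0. From E16.5 to P1, Ccne2 went from 0.00 to -0.16 with quantile scaling; in lines minus primary it went from 0.08 to -0.04 with median-ratio scaling. In P20 lines Rrm2 (-0.01) was 0.04 with median-ratio scaling and 0.03 with the table set, and Lig1 (-0.09) was 0.0 with the table set. In P80 lines Rrm2 (-0.05) was 0.02 with median-ratio scaling, and against P20 (-0.04) 0.01 with quantile scaling. Over libraries left out, Ccne2 ranged from -0.57 to 0.22 (P1 against E11.5), -0.31 to 0.31 (P1 against E16.5), -0.44 to 0.07 (late against early lines) and -0.18 to 0.34 (lines minus primary). Lig1 ranged from -0.13 to 0.08 (Six2-negative), -0.25 to 0.05 (P20), -0.35 to 0.01 (P80 against P20) and -0.19 to 0.02 (late against early lines). Rrm2 ranged from -0.18 to 0.11 (P20), -0.32 to 0.07 (P80) and -0.32 to 0.13 (P80 against P20). At P20 Pcna ranged from -0.09 to 0.20 and Cdt1 from -0.29 to 0.06. For P80 against P20, Mcm2 ranged from -0.28 to 0.13, Mcm6 from -0.06 to 0.23, Ccne1 from -0.41 to 0.20 and Tyms from -0.13 to 0.41. For late against early lines, Mcm2 ranged from -0.02 to 0.12, Ccne1 from -0.13 to 0.05, E2f1 from -0.16 to 0.05 and Cdt1 from -0.18 to 0.16.

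Scaling moved the share of higher among all called genes. From E11.5 to P1 it was 49.7%, and 66.8% with median-ratio and 38.0% with quantile scaling; from E16.5 to P1 42.2% and 66.6% (median-ratio); between late and early primary cells 61.5% and 39.9% (quantile); in lines minus primary 18.6% and 36.8% (quantile); from E13.5 to E16.5 84.5% and 73.8% (quantile); in P20 lines 40.2% and 50.7% (quantile) and in P80 lines 38.9% and 49.1% (quantile); and between late and early lines 4 of 6 genes and 4 of 8 (median-ratio). RPKM without counts gives no counting error for single values, so low genes such as Ccne2 and E2f2 are the least certain.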
